A study of Rattus norvegicus with 6 samples.

Results

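The genes described here encode the enzymes of cholesterol and fatty acid synthesis and the proteins that regulate them, measured in 3 populations of cultured rat olfactory ensheathing cells. The list names 35 genes, and a probe set was taken as a member when the only gene symbol annotated to it was one of these. In all, 107 probe sets met this rule, 52 of 8799 on the U34A array and 55 of 31099 on the RAE2.0 array, and they covered 34 of the 35 genes. Of these, 24 genes had probe sets on both array types and 10 on RAE2.0 only, while Hmgcs1, the cytosolic enzyme that makes HMG-CoA, had no such probe set and its expression was not analysed here. All 24 genes on both types passed the filter on dim probe sets, which asked for a signal above a floor on at least 1 of the 3 arrays of a type.

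Cholesterol is built from acetyl-CoA through the mevalonate pathway to squalene, which is closed to lanosterol and then trimmed and desaturated to cholesterol. The same cytosolic acetyl-CoA, released from citrate, feeds fatty acid synthase, whose product is lengthened by elongases and given double bonds by desaturases. When sterols are scarce in the endoplasmic reticulum, the escort protein Scap carries the membrane-bound SREBP factors to the Golgi for cleavage, and the freed factors switch on most of these genes, whereas Insig proteins hold Scap back when sterols are plentiful. Glia are known for high lipid synthesis during myelination and for supplying cholesterol to neurons, and ensheathing cells wrap olfactory axons without forming myelin.

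Olfactory ensheathing cells are the glia that accompany olfactory axons, and all 3 populations came from the nerve layer of both olfactory bulbs of Wistar rats. TEG3 is a clonal line made by transfecting cultures from rats 60 days old with a plasmid for the SV40 large T antigen, so it stands for 1 clone. OEC Lp cells came from rats 21 days old and had passed 50 population doublings in culture. OEC Ep cells, also from rats 21 days old, were harvested within 3 doublings, and a purity over 90% by immunostaining is stated for both OEC Lp and OEC Ep. All were labelled as grown in M3 medium, which is DMEM with 3% fetal bovine serum, 20 µg/ml bovine pituitary extract and 2 µM forskolin, so every population had serum lipids and a cyclic AMP raising agent. Each population was measured on 1 U34A and 1 RAE2.0 array, 6 arrays in all. The design text describes 2 RNA pools per population, each of 3 cultures, and names U34A arrays alone, so which RNA went on which array is not known here and the p-values may cover technical spread alone.

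The arrays of a type were close in the share of probe sets that exceeded the floor. This share was 59.2 to 61.6% for U34A arrays and 59.1 to 61.8% for RAE2.0 arrays. The U34A arrays were less close in the ratio of the 3′ to the 5′ GAPDH control. It was 1.54 in TEG3, 1.52 in OEC Lp and 1.96 in OEC Ep on U34A, while on RAE2.0 it lay between 0.981 and 1.02. Whether the higher ratio of the OEC Ep U34A array bears on the lipid gene values was not tested. The labelled cell type was checked against markers of ensheathing and Schwann cells, of which 9 of 12 were measured on U34A and 10 on RAE2.0. Their summed signal was 12386 in TEG3, 9180 in OEC Lp and 79183 in OEC Ep on U34A, and 3039 in TEG3, 1054 in OEC Lp and 110498 in OEC Ep on RAE2.0. S100b, a calcium-binding protein of glia, was at the floor on RAE2.0 in TEG3 and OEC Lp, as was Gfap, and Sox10 was at the floor in OEC Lp on both types. Ngfr, a neurotrophin receptor of these cells, differed by type, being at the floor in TEG3 and OEC Lp on RAE2.0 but at 3621 in TEG3, 2569 in OEC Lp and 12716 in OEC Ep on U34A. Of the 9 markers on both types, 8 fell in OEC Lp and 7 in TEG3 against OEC Ep (limma adjusted p under 0.05). Markers of microglia and macrophages, immune cells that such a culture could hold, numbered 12 on RAE2.0 and summed there to 1175 in TEG3, 1148 in OEC Lp and 62081 in OEC Ep, with Aif1, C1qa, C1qb and C1qc at the floor in TEG3 and OEC Lp. For these 2 lists OEC Ep stood apart, as it also did for markers of oligodendrocytes and, below, of neurons. Those of oligodendrocytes, 6 genes on RAE2.0, summed there to 4259 in TEG3, 2452 in OEC Lp and 28466 in OEC Ep. Of the 4 oligodendrocyte markers on both types, 2 fell in OEC Lp and 1 in TEG3 against OEC Ep (limma adjusted p under 0.05). Markers of fibroblasts and meningeal cells, 9 genes on RAE2.0, summed to 50131 in TEG3, 183949 in OEC Lp and 183449 in OEC Ep, so that TEG3 was the low one there. On U34A the gap was smaller, with sums of 152195 in TEG3, 185197 in OEC Lp and 216912 in OEC Ep. Of those 9 genes, 2 rose and 2 fell in OEC Lp against OEC Ep. Markers of neurons, 5 genes on RAE2.0, summed there to 4515 in TEG3, 708 in OEC Lp and 46744 in OEC Ep. Of the 3 neuron markers on both types, 3 fell in OEC Lp and 2 in TEG3 against OEC Ep (limma adjusted p under 0.05). Among them Uchl1, a ubiquitin hydrolase, rose in TEG3 against OEC Lp (limma adjusted p = 0.0232), where it was at the floor on RAE2.0. Nefl and Nefm, neurofilament genes, were at the floor in TEG3 on both types. The part of any of these markers in the lipid gene values was not tested. In bulk cultures like these, fewer cells of a type and less RNA per cell cannot be told apart.

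Promoter windows from RefSeq (build GRCr8), running from 250 bases before to 50 bases after the annotated start, were found for 28 of the 35 genes. Those of Mvk, Insig1 and Me1 are printed because these genes had the lowest p in the 3 comparisons below, and those of Fads1 and Fads2, neighbours on chromosome 1, because their signals differed most among genes measured on RAE2.0 only between OEC Lp and OEC Ep. Capitals mark CCAAT boxes, bound by NF-Y, and GC boxes (GGGCGG), bound by Sp1, each on either strand, so that they also appear as ATTGG and CCGCCC. NF-Y and Sp1 are known partners of SREBP factors at sterol-regulated promoters. The windows lie at chr12:47819454-47819753 on the minus strand for Mvk, chr4:8057720-8058019 (minus) for Insig1, chr8:96540195-96540494 (minus) for Me1, chr1:216252442-216252741 (plus) for Fads1 and chr1:216171984-216172283 (minus) for Fads2.
Mvk: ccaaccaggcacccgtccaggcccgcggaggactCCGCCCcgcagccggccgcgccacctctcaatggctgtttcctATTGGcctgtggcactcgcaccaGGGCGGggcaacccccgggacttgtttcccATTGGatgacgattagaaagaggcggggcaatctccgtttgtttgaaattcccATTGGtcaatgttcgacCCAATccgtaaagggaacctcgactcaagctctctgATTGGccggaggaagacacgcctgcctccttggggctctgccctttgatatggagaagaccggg
Insig1: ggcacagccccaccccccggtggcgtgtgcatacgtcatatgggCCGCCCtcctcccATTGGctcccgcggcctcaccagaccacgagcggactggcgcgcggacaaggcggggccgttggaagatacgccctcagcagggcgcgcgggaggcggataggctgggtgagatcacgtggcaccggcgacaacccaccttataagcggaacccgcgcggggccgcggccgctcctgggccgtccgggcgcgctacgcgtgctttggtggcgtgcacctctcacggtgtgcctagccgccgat
Me1: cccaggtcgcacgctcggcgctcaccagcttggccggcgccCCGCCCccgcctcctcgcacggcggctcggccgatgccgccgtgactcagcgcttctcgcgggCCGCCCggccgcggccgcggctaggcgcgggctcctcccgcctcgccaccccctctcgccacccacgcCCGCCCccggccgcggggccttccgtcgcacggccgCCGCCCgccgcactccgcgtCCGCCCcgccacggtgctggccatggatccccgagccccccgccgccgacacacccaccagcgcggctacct
Fads1: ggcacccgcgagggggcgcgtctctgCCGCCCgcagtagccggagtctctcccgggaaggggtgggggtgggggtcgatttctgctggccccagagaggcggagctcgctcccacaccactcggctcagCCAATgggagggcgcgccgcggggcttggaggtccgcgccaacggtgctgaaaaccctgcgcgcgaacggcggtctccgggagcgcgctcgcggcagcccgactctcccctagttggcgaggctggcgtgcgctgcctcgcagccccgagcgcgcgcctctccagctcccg
Fads2: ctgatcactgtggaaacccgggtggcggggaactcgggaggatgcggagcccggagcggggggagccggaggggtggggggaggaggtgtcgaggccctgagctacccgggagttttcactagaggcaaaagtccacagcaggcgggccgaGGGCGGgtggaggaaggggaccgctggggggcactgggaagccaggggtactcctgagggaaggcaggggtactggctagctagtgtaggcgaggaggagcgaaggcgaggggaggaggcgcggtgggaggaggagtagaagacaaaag

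The Mvk window held 5 CCAAT boxes and 2 GC boxes, the Insig1 and Fads1 windows 1 of each, the Me1 window 5 GC boxes and no CCAAT box, and the Fads2 window 1 GC box and no CCAAT box. Over the 28 genes with a window, 20 (71.4%) held a CCAAT box, against 37.8% of the windows of 9599 genes measured on RAE2.0. A GC box was found in 23 of 28 (82.1%), against 62.5% of the measured genes. The core of the sterol regulatory element, searched as TCACNCCAC on both strands, was in 0 of the 28 windows and in 1.07% of those of the measured genes, a spelling so strict that it finds few sites anywhere. A match of letters is a description of the window and not a measured binding site.

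Across the populations, the lipid synthesis genes differed by modest amounts, and none of the 24 genes on both types passed the test in any comparison (limma, Benjamini-Hochberg adjusted p under 0.05 over 3131 genes, array type as a block). Values below are signals, the deposited intensities after scaling, and log2 folds come from the fit over both types with their SE. The 3 comparisons share arrays (each population enters a pair of them), so their values are not independent of each other. SEs of the 24 genes ran from 0.29 to 0.55 log2 units, with a median of 0.36.

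OEC Lp was set against OEC Ep, the comparison of long with short culture. With limma, 0 of 24 genes were called higher and 0 lower, against 2.11% and 4.02% of all tested genes, and the lowest adjusted p was 0.127. At an unadjusted p under 0.05 there were 4 genes (Mvk, Cyp51 and Hsd17b7 higher, Acly lower), or 16.7%, which is near the 19.5% of all genes. The median log2 fold of the 24 genes was 0.42, beside 0.11 over all genes. Of the 24, 20 were above 0, beside 1778 of all 3131 genes. By type, the median of the 24 was 0.67 on U34A (0.05 over all genes) and 0.06 on RAE2.0 (0.08 over all genes). Both array types put 11 genes higher in OEC Lp (45.8%, against 35.6% of all genes) and 3 genes lower (12.5%, against 26.8%). On RAE2.0, where 34 genes were measured on 1 array per population and no test is possible, Mvk and Hsd17b7 were at least 2-fold higher (5.88%, against 10.4% of 11542 genes). There, 6 genes were at least 2-fold lower (Acly, Idi1, Stard4, Elovl6, Fads1 and Fads2; 17.6%, against 10.4%).

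TEG3 was set against OEC Ep, which compares the large T line with short-term culture. With limma, 0 of 24 genes were called higher and 0 lower, against 0.639% and 3.70% of all tested genes, and the lowest adjusted p was 0.119. At an unadjusted p under 0.05 there were 5 genes (Acat2, Cyp51, Insig1 and Srebf1 higher, Me1 lower), or 20.8%, against 21.7% of all genes. The median log2 fold was 0.34, beside 0.04 over all genes. Both types put 12 genes higher in TEG3 (50%, against 34.3%) and 3 lower, Idi1, Acly and Me1 (12.5%, against 30.2%). On RAE2.0, 5 of 34 genes were at least 2-fold higher (Lss, Tm7sf2, Ebp, Insig1 and Scd; 14.7%, against 12%) and Stard4 and Elovl6 were at least 2-fold lower (5.88%, against 10.6%).

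TEG3 was also set against OEC Lp, which compares the 2 populations adapted to long culture. With limma, 0 of 24 genes were called higher and 0 lower, against 0.192% and 1.02% of all tested genes, and the lowest adjusted p was 0.218. At an unadjusted p under 0.05 there were 2 genes, Me1 and Elovl5, both lower in TEG3 (8.33%, against 15.4%). The median log2 fold was 0.06, beside -0.01 over all genes. It was -0.34 on U34A and 0.25 on RAE2.0. In the fit, 12 genes were above and 12 below 0, beside 1493 and 1593 of all 3131 genes. Both types put 5 genes higher in TEG3 (20.8%, against 26.3%) and 7 lower (29.2%, against 30.7%). On RAE2.0, 8 of 34 genes were at least 2-fold higher (Acat2, Idi1, Fdps, Lss, Tm7sf2, Scd, Fads1 and Fads2; 23.5%, against 9.61%), while Hsd17b7 and Me1 were at least 2-fold lower (5.88%, against 8.66%). Of these 8, 3 were measured on RAE2.0 only, and the others were lower in TEG3 on U34A. Their U34A log2 folds were -0.06 for Acat2, -0.20 for Idi1, -0.25 for Fdps, -0.29 for Lss and -0.38 for Scd. For Lss the RAE2.0 probe sets had log2 folds of 2.13, with OEC Lp under the floor, and 0.37.

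**Figure D1:**
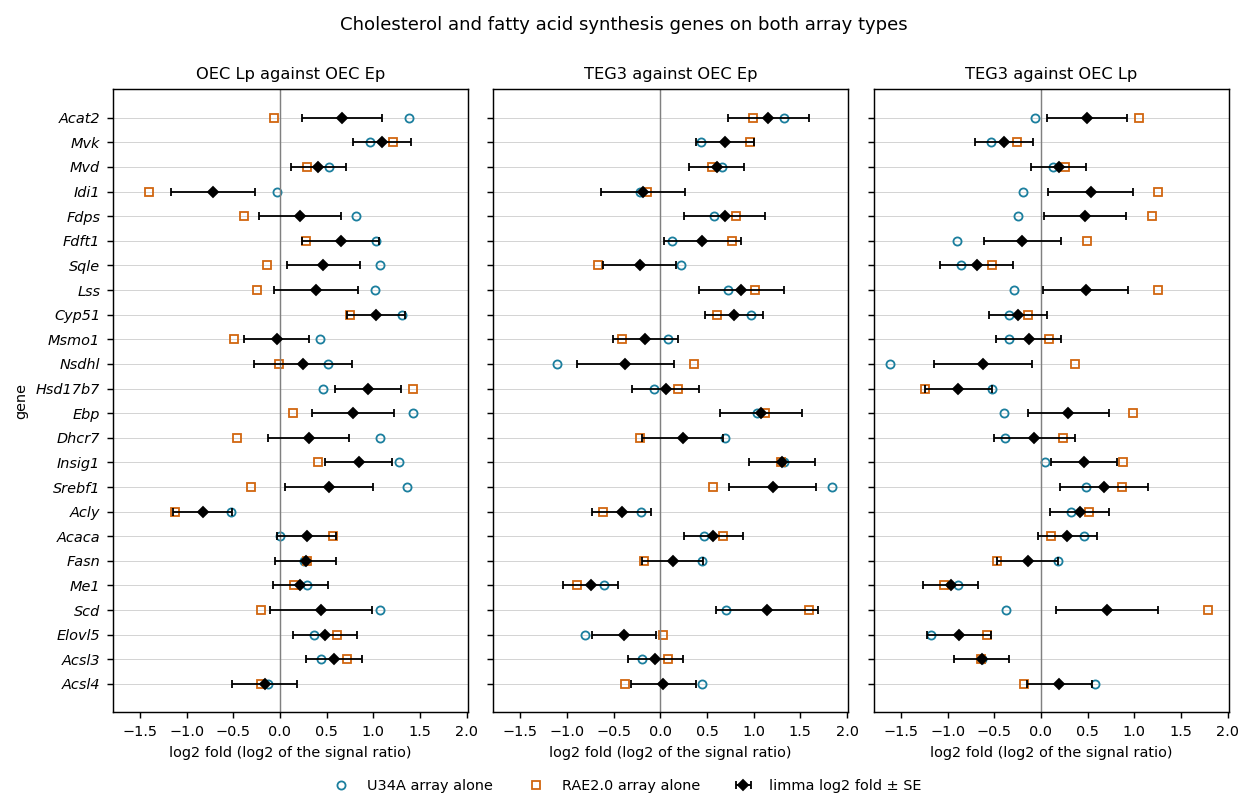
Log2 folds (x axis, log2 of the signal ratio) of the 24 genes measured on both array types, in pathway order, for the 3 comparisons. Black diamonds are the fit over both types with bars of 1 SE, circles the U34A array alone and squares the RAE2.0 array alone. In OEC Lp against OEC Ep most circles lie right of the squares, whereas in TEG3 against OEC Lp most circles lie left of them, and no gene passed the test.

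In the mevalonate arm, Acat2, the cytosolic thiolase that joins acetyl-CoA units, differed between TEG3 and OEC Ep on both types. Its signal was 9710.3 in TEG3, 10129 in OEC Lp and 3873 in OEC Ep on U34A. On RAE2.0 it was 5966 in TEG3, 2882 in OEC Lp and 3004 in OEC Ep. Only OEC Lp changed its place between the types, being level with TEG3 on U34A and with OEC Ep on RAE2.0. TEG3 against OEC Ep had a log2 fold of 1.16 ± 0.43 (SE, 2 arrays each; limma adjusted p = 0.208).

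Mvk, mevalonate kinase, had its highest signal in OEC Lp and its lowest in OEC Ep on both types. On U34A it had 173 in TEG3, 252 in OEC Lp and the floor of 128 in OEC Ep. On RAE2.0 it had 1136 in TEG3, 1353 in OEC Lp and 584 in OEC Ep. OEC Lp was thus at least 1.96-fold higher than OEC Ep on U34A, a bound set by the floor, and 2.32-fold higher on RAE2.0. The log2 fold fitted with the floor value was 1.09 ± 0.31 (SE; limma adjusted p = 0.127), and 1.69 with the floor at the 20th percentile. Pmvk, phosphomevalonate kinase, measured on RAE2.0 only, had 1258 in TEG3, 878 in OEC Lp and 1163 in OEC Ep.

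Mvd, which makes isopentenyl diphosphate, followed one order on both types, highest in TEG3 and lowest in OEC Ep. It had 1264 in TEG3, 1158 in OEC Lp and 802 in OEC Ep on U34A, and 766 in TEG3, 642 in OEC Lp and 524 in OEC Ep on RAE2.0. Its log2 fold of TEG3 against OEC Ep was 0.60 ± 0.29 (SE; limma adjusted p = 0.303). Idi1, the isomerase of the next step, and Fdps, farnesyl diphosphate synthase, differed by array type. For Idi1 on U34A, one probe set had 1279.8 in TEG3, 3575 in OEC Lp and 2131 in OEC Ep and the other 343 in TEG3, 161 in OEC Lp and 281 in OEC Ep, so they ran opposite ways and their mean was flat. On RAE2.0 both of its probe sets were lowest in OEC Lp, with a mean of 3240 in TEG3, 1354 in OEC Lp and 3586 in OEC Ep. Fdps had 3244 in TEG3, 3849 in OEC Lp and 2185 in OEC Ep on U34A, and 24299.5 in TEG3, 10645 in OEC Lp and 13911 in OEC Ep on RAE2.0. By probe set means, OEC Lp was thus the highest for Fdps on one type and the lowest on the other. The 3 U34A probe sets of Fdps were each highest in a different population. One had 14464 in TEG3 and 12858 in OEC Lp, another 6723 in TEG3 and 7961 in OEC Lp. The dimmest had 351 in TEG3, 557 in OEC Lp and 579 in OEC Ep.

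In the squalene and sterol arm, Cyp51 is the lanosterol demethylase. By the mean of its probe sets, it was lowest in OEC Ep and highest in OEC Lp on both types. Its signal was 1886 in TEG3, 2392 in OEC Lp and 963 in OEC Ep on U34A, and 7675 in TEG3, 8474 in OEC Lp and 5049 in OEC Ep on RAE2.0. The log2 fold of OEC Lp against OEC Ep was 1.03 ± 0.31 (SE; limma adjusted p = 0.150), and that of TEG3 against OEC Ep was 0.79 ± 0.31 (adjusted p = 0.228). The U34A probe sets of Cyp51 did not all keep this order. The brightest had 9696 in TEG3, 16130 in OEC Lp and 10289 in OEC Ep, so TEG3 was lowest. Another was highest in TEG3, with 1373 in TEG3, 1007 in OEC Lp and 662 in OEC Ep. The remaining ones kept the order of the mean.

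Hsd17b7, a ketoreductase of sterol demethylation, had its highest signal in OEC Lp. It had 273 in TEG3, 393 in OEC Lp and 286 in OEC Ep on U34A, and 874 in TEG3, 2071 in OEC Lp and 769 in OEC Ep on RAE2.0. TEG3 and OEC Ep were thus close on both types. OEC Lp against OEC Ep had a log2 fold of 0.94 ± 0.36 (SE; limma adjusted p = 0.233), and that of TEG3 against OEC Lp was -0.89 ± 0.36 (adjusted p = 0.332).

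Ebp, the sterol isomerase, was lowest in OEC Ep on both types. It had 390 in TEG3, 514 in OEC Lp and 191 in OEC Ep on U34A, and 2422 in TEG3, 1223 in OEC Lp and 1111 in OEC Ep on RAE2.0. The TEG3 to OEC Ep log2 fold was 1.08 ± 0.44 (SE; limma adjusted p = 0.234). Fdft1, squalene synthase, was also lowest in OEC Ep on both types by probe set means. It had 659 in TEG3, 1230 in OEC Lp and 604 in OEC Ep on U34A. On RAE2.0 it had 2649 in TEG3, 1880 in OEC Lp and 1552 in OEC Ep. Its log2 fold of OEC Lp against OEC Ep was 0.65 ± 0.41 (SE, limma adjusted p = 0.469). The U34A probe sets of Fdft1 differed. One had 717 in TEG3, 1935 in OEC Lp and 929 in OEC Ep. Another had 277 in TEG3, 625 in OEC Lp and 466 in OEC Ep, so both were lowest in TEG3. The remaining ones were lowest in OEC Ep, with 688 and 448 there.

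The other enzymes of this arm did not keep one order of populations. Sqle, squalene epoxidase, had 4925 in TEG3, 8892 in OEC Lp and 4223 in OEC Ep on U34A, but 2563 in TEG3, 3696 in OEC Lp and 4080 in OEC Ep on RAE2.0. Lss, lanosterol synthase, had 620 in TEG3, 759 in OEC Lp and 375 in OEC Ep on U34A, but 1150 in TEG3, 483 in OEC Lp and 571 in OEC Ep on RAE2.0. By probe set means, OEC Ep was thus below OEC Lp for both on U34A and above it on RAE2.0. For Lss the RAE2.0 probe sets differed. The dimmer had 737 in TEG3, a value under the floor in OEC Lp and 343 in OEC Ep. The brighter had 1795 in TEG3, 1386 in OEC Lp and 949 in OEC Ep. Msmo1, which removes methyl groups from sterols, had 6100.0 in TEG3, 7721 in OEC Lp and 5750 in OEC Ep on U34A, but 12091 in TEG3, 11430.1 in OEC Lp and 16065 in OEC Ep on RAE2.0. Dhcr7, a late reductase of the pathway, had 1140 in TEG3, 1485 in OEC Lp and 706 in OEC Ep on U34A, but 1813 in TEG3, 1534 in OEC Lp and 2105 in OEC Ep on RAE2.0. By probe set means, OEC Ep was the lowest of the 3 on U34A and the highest on RAE2.0 for Msmo1 and Dhcr7. The brighter U34A probe set of Msmo1 was highest in OEC Ep, with 9877 in TEG3, 9755 in OEC Lp and 11931 in OEC Ep. Nsdhl, a sterol dehydrogenase, had 246 in TEG3, 755 in OEC Lp and 530 in OEC Ep on U34A and 1937 in TEG3, 1499 in OEC Lp and 1512 in OEC Ep on RAE2.0.

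2 enzymes of the arm were measured on RAE2.0 only. Tm7sf2, a sterol reductase, had 3063 in TEG3, 831 in OEC Lp and 801 in OEC Ep, so it was 3.82-fold higher in TEG3 than in OEC Ep and 3.69-fold higher than in OEC Lp on these single arrays. Sc5d, the sterol desaturase, had 1859 in TEG3, 2823 in OEC Lp and 2164 in OEC Ep, a range below 2-fold. Over the 14 genes of both sterol arms measured on both types, the types gave unlike counts for OEC Lp. OEC Lp exceeded OEC Ep for 13 of 14 genes on U34A (median log2 fold 1.0), against 49.5% of all genes there, but for 6 of the same 14 on RAE2.0 (median -0.04), against 55.5%. TEG3 exceeded OEC Ep for 11 of 14 on U34A (median 0.50, against 47.7% of all genes) and 10 of 14 on RAE2.0 (median 0.58, against 56%). Set against OEC Lp, TEG3 was lower for 13 of 14 on U34A (median -0.36, against 49% of all genes) and higher for 10 of 14 on RAE2.0 (median 0.31, against 49.6%).

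**Figure D2:**
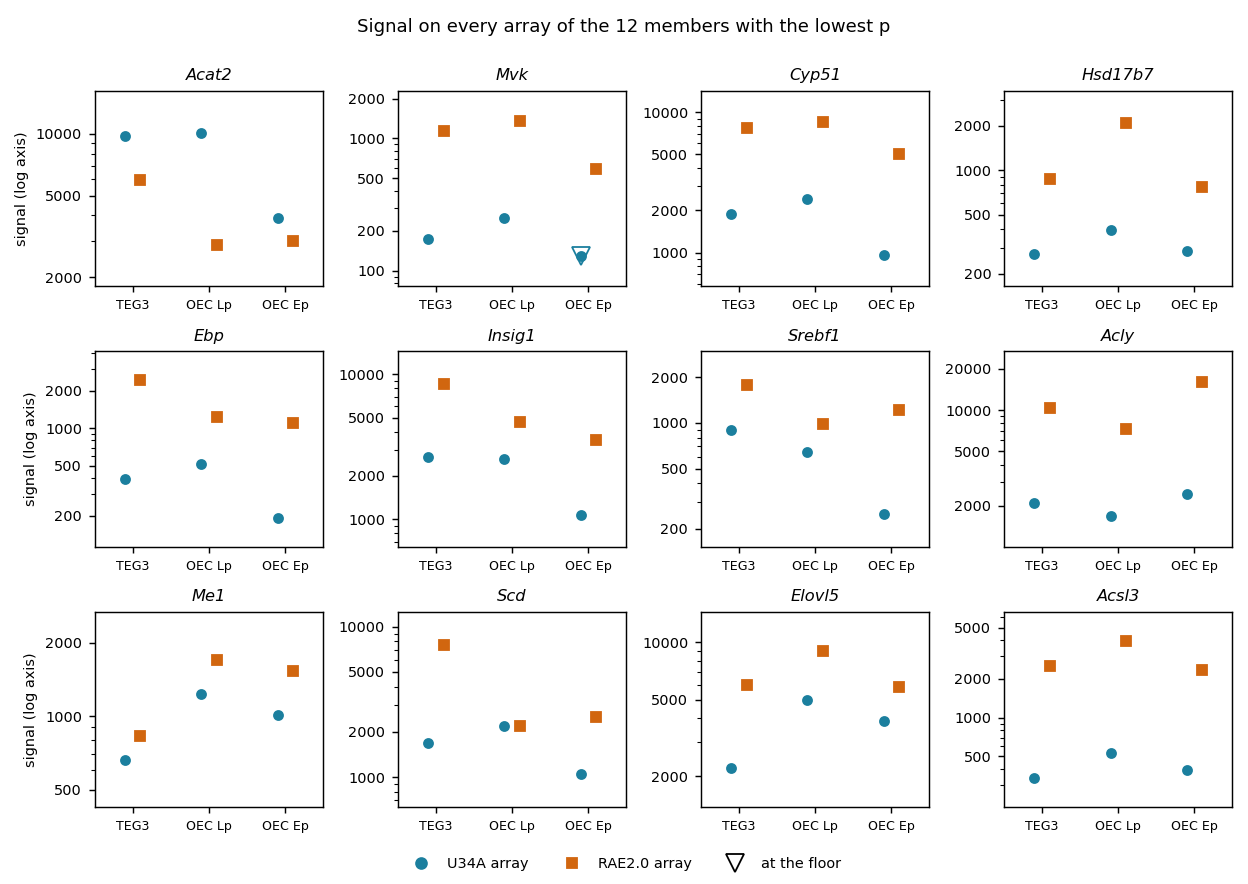
Signal (log axis) on every array of the 12 genes with the lowest p in any comparison, in pathway order, with TEG3, OEC Lp and OEC Ep on the x axis. Circles are U34A arrays, squares RAE2.0 arrays, and the triangle marks a value at the floor. The 2 types use different probe sets, so their levels are not set against each other. Mvk, Cyp51 and Hsd17b7 peak in OEC Lp on both types by probe set means.

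Among the regulators, Insig1, which keeps Scap in the endoplasmic reticulum and is itself an SREBP target, had the lowest p of all 24 genes. Its signal was 2682 in TEG3, 2610.4 in OEC Lp and 1075 in OEC Ep on U34A, and 8638 in TEG3, 4681 in OEC Lp and 3535 in OEC Ep on RAE2.0. In these probe set means TEG3 was highest and OEC Ep lowest on both types, with TEG3 and OEC Lp nearly equal on U34A. One U34A probe set had 2201 in TEG3 and 2625 in OEC Lp, the other 3268 in TEG3 and 2595 in OEC Lp. The log2 fold of TEG3 against OEC Ep was 1.30 ± 0.36 (SE; limma adjusted p = 0.119), with 1.32 on U34A and 1.29 on RAE2.0. That of OEC Lp against OEC Ep was 0.84 ± 0.36 (adjusted p = 0.282).

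Srebf1, the SREBP gene most tied to fatty acid synthesis, was highest in TEG3 on both types. It had 898 in TEG3, 643 in OEC Lp and 251 in OEC Ep on U34A, and 1795 in TEG3, 983 in OEC Lp and 1214 in OEC Ep on RAE2.0. OEC Lp and OEC Ep exchanged order between the types. TEG3 against OEC Ep had a log2 fold of 1.20 ± 0.47 (SE; limma adjusted p = 0.223), larger on U34A (1.84) than on RAE2.0 (0.56).

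The other regulators were measured on RAE2.0 only and, by probe set means, stayed within 1.35-fold between any of the populations. Srebf2, the SREBP gene most tied to cholesterol synthesis, had 4344 in TEG3, 4179 in OEC Lp and 3525 in OEC Ep. Scap had 616 in TEG3, 630.2 in OEC Lp and 502 in OEC Ep. Its dimmer probe set had 190 in TEG3, 275 in OEC Lp and a value under the floor in OEC Ep. The brighter had 1997 in TEG3, 1444 in OEC Lp and 1499 in OEC Ep. Insig2, the paralog of Insig1, had 1072 in TEG3, 1338 in OEC Lp and 993 in OEC Ep. One Insig2 probe set had 963 in TEG3, 1495 in OEC Lp and 1040 in OEC Ep. The other had 1193 in TEG3, 1197 in OEC Lp and 948 in OEC Ep. Stard4, a carrier of cholesterol between membranes, was highest in OEC Ep, with a mean over its 3 probe sets of 426 in TEG3, 469 in OEC Lp and 952 in OEC Ep. Its probe sets differed in size of effect. One had 510.0 in TEG3, 550.0 in OEC Lp and 2129 in OEC Ep, another 785 in TEG3, 718 in OEC Lp and 1488 in OEC Ep, and the dimmest 193 in TEG3, 261 in OEC Lp and 272 in OEC Ep.

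Of the fatty acid synthesis enzymes, Acly releases acetyl-CoA from citrate. By the mean of its probe sets, it was lowest in OEC Lp and highest in OEC Ep on both types. It had 2093 in TEG3, 1680.0 in OEC Lp and 2422 in OEC Ep on U34A, and 10416 in TEG3, 7309 in OEC Lp and 15969 in OEC Ep on RAE2.0. OEC Lp against OEC Ep gave a log2 fold of -0.83 ± 0.32 (SE; limma adjusted p = 0.234). By these means, Acly was the only one of the 24 genes with OEC Lp lowest on both types, against 9.1% of all tested genes. Its 3 U34A probe sets each had a different lowest population. The brightest had 9162 in TEG3, 5773 in OEC Lp and 12166 in OEC Ep. Another had 1296 in TEG3, 1461 in OEC Lp and 2117 in OEC Ep, and the dimmest 772 in TEG3, 562 in OEC Lp and 552 in OEC Ep.

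Me1, malic enzyme, a source of NADPH for lipid synthesis, was the only one of the 24 genes with TEG3 lowest on both types, a pattern found in 13.8% of all tested genes. It had 664 in TEG3, 1234 in OEC Lp and 1009 in OEC Ep on U34A, and 827 in TEG3, 1703 in OEC Lp and 1538 in OEC Ep on RAE2.0. OEC Lp and OEC Ep were close on both types. The log2 fold was -0.97 ± 0.29 for TEG3 against OEC Lp (SE; limma adjusted p = 0.218) and -0.75 ± 0.29 for TEG3 against OEC Ep (adjusted p = 0.225).

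Fasn, fatty acid synthase, stayed within 1.4-fold between any of the populations on each type by probe set means. It had 1813 in TEG3, 1595 in OEC Lp and 1331 in OEC Ep on U34A, and 3088 in TEG3, 4272 in OEC Lp and 3499 in OEC Ep on RAE2.0, and its 3 log2 folds lay between -0.14 and 0.27 with an SE of 0.33. Acaca, the acetyl-CoA carboxylase that commits carbon to fatty acids, had 177 in TEG3 on U34A and was at the floor of 128 there in OEC Lp and OEC Ep. On RAE2.0 it had 1157 in TEG3, 1077 in OEC Lp and 725 in OEC Ep, so OEC Lp against OEC Ep was measured on that type alone. The brighter RAE2.0 probe set of Acaca was highest in OEC Lp, with 3042 in TEG3, 3403 in OEC Lp and 2258 in OEC Ep. The dimmer was highest in TEG3, with 440 in TEG3, 341 in OEC Lp and 233 in OEC Ep.

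Among the desaturases and elongases, Scd, which puts the first double bond into stearoyl-CoA, had 1687 in TEG3, 2194 in OEC Lp and 1040.0 in OEC Ep on U34A, and 7570.2 in TEG3, 2186 in OEC Lp and 2520 in OEC Ep on RAE2.0. TEG3 exceeded OEC Ep on both types, but exceeded OEC Lp on RAE2.0 only. The log2 fold of TEG3 against OEC Ep was 1.14 ± 0.55 (SE; limma adjusted p = 0.299). Rat Scd has close paralogs, and a probe set annotated to several of them was left out.

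Elovl5, an elongase of polyunsaturated fatty acids, was highest in OEC Lp on both types. It had 2209 in TEG3, 4981 in OEC Lp and 3874 in OEC Ep on U34A, and 5988 in TEG3, 8948 in OEC Lp and 5871 in OEC Ep on RAE2.0. In the fit, TEG3 against OEC Lp gave a log2 fold of -0.88 ± 0.34 (SE; limma adjusted p = 0.307).

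Elovl6 and the desaturases Fads1 and Fads2 were measured on RAE2.0 only, and all were highest in OEC Ep. Fads1, the delta-5 desaturase, had 9285 in TEG3, 3158 in OEC Lp and 17889 in OEC Ep. This was 5.66-fold lower in OEC Lp than in OEC Ep, the largest fold of any listed gene, and 2.94-fold higher in TEG3 than in OEC Lp. Fads2, the delta-6 desaturase, kept the same order at a dimmer signal, with 1658 in TEG3, 718 in OEC Lp and 2318 in OEC Ep. Elovl6, which lengthens palmitate, had 933 in TEG3, 1102 in OEC Lp and 2265 in OEC Ep, and its 2 probe sets gave folds alike (log2 fold of OEC Lp against OEC Ep -1.04 on each). For these genes TEG3 lay between the others for the desaturases but at the low end for Elovl6. With 1 array per population, no error can be given.

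**Figure D3:**
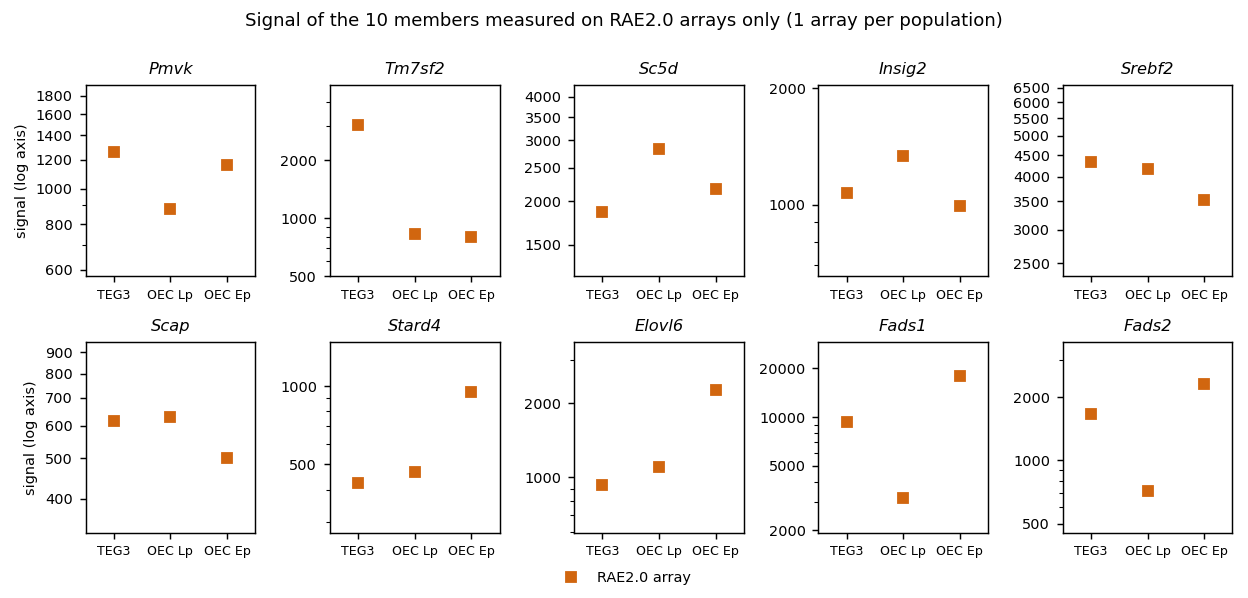
Signal (log axis) of the 10 genes measured on RAE2.0 only, with 1 array per population, in pathway order, with TEG3, OEC Lp and OEC Ep on the x axis. Each panel has its own axis range. Fads1 and Fads2 dip in OEC Lp, Tm7sf2 stands out in TEG3, and Stard4 and Elovl6 are highest in OEC Ep.

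The 2 members that activate fatty acids to acyl-CoA stayed below 2-fold in every fitted comparison. Acsl3 was highest in OEC Lp on both types, with 341 in TEG3, 529 in OEC Lp and 391 in OEC Ep on U34A and 2505 in TEG3, 3896 in OEC Lp and 2360 in OEC Ep on RAE2.0. Its log2 fold of TEG3 against OEC Lp was -0.64 ± 0.30 (SE; limma adjusted p = 0.390). The dimmer U34A probe set of Acsl3 was under the floor in OEC Ep. Acsl4, which prefers arachidonic acid, had log2 folds between -0.16 and 0.20 with an SE of 0.35. Both types agreed in direction only for OEC Lp against OEC Ep. In that comparison the U34A probe sets of Acsl4 ran opposite ways. Their log2 folds were -1.12, -0.59 and 1.34, the last with OEC Ep under the floor.

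The order of the populations, read from the mean of each gene's probe sets, held on both array types for a minority of the genes. OEC Lp was highest on both types for 6 of 24 genes (Mvk, Cyp51, Hsd17b7, Me1, Elovl5 and Acsl3; 25%, against 17.6% of all tested genes). TEG3 was highest for 4 (Mvd, Insig1, Srebf1 and Acaca; 16.7%, against 16.9%) and OEC Ep for 2 (Idi1 and Acly; 8.33%, against 18.3%), where Idi1 rests on a U34A mean of 759 in OEC Lp and 774 in OEC Ep from the opposed probe sets. OEC Ep was lowest on both types for 6 (Mvk, Mvd, Fdft1, Cyp51, Ebp and Insig1; 25%, against 18.9%). Across the 24 genes, which share arrays, the log2 folds of the types correlated with r = 0.235 for OEC Lp against OEC Ep, r = 0.552 for TEG3 against OEC Ep and r = 0.261 for TEG3 against OEC Lp, as a description. Over all 3131 genes, whose folds span a wider range, r was 0.630, 0.678 and 0.516 for the same comparisons. Probe sets of one gene could also differ in sign on 1 array type, for 5, 8 and 11 of the 15 genes with several probe sets on U34A and for 4, 3 and 3 of 17 on RAE2.0 in those comparisons.

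**Figure D4:**
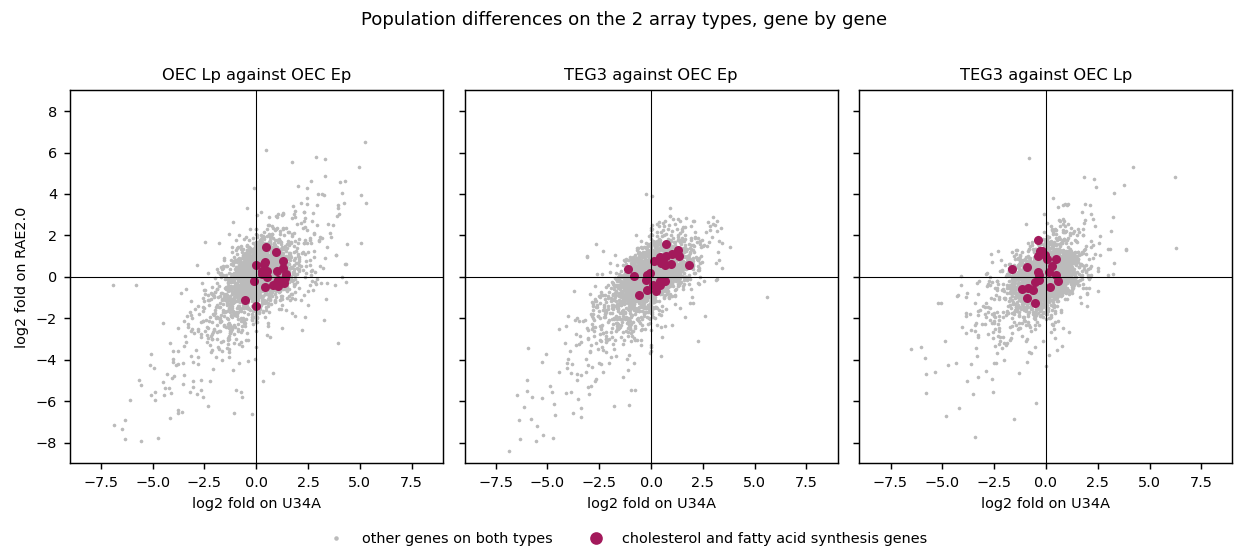
Log2 fold on RAE2.0 (y axis) against log2 fold on U34A (x axis) for each gene measured on both types, in the 3 comparisons. Grey points are all other tested genes and coloured points the 24 cholesterol and fatty acid synthesis genes, which lie within 1.84 log2 units of 0 on each axis, while other genes reach 8.40.

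Neighbouring genes of lipid metabolism that are not on the list were read for comparison, 31 of them on both types. In OEC Lp against OEC Ep, 0 rose and 2 fell (6.45%, against 4.02% of all genes called lower). Fabp7, a fatty acid binding protein that is also one of the ensheathing cell markers above, was at the floor on both types in TEG3 and OEC Lp, against 1737 in OEC Ep on U34A and 15985 in OEC Ep on RAE2.0. In OEC Lp it was at least 13.5-fold lower on U34A and at least 95.1-fold lower on RAE2.0 (limma adjusted p = 0.0214), and the same bounds held in TEG3 (adjusted p = 0.0266). Fabp5, another carrier of fatty acids, had 19226 in TEG3, 3112 in OEC Lp and 12845 in OEC Ep on U34A, and 15154 in TEG3, 3895 in OEC Lp and 13997 in OEC Ep on RAE2.0. It fell 3.85-fold in OEC Lp against OEC Ep (limma adjusted p = 0.0293) and rose 4.90-fold in TEG3 against OEC Lp (adjusted p = 0.0479), the only such gene to rise in that comparison, where 0.192% of all genes did. Fabp7 was the only one of the 31 called in TEG3 against OEC Ep (3.23%, against 3.70% of all genes called lower). Fabp5 thus has the dip in OEC Lp that Fads1 and Fads2 have on RAE2.0.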

How the data were processed

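Total RNA was measured on 6 Affymetrix arrays, 1 U34A and 1 RAE2.0 array for each of 3 populations. The deposited values are MAS5 signals, a linear intensity per probe set; per the submitters' processing notes they were made with MAS5, from Microarray Suite version 5.0 according to the design text. Other processing steps of the authors are not given in the sources used here. Probe sets were named from the platform annotation, and those with several symbols (308 and 436 on the 2 types) were not used.

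Within each array type, signals were scaled to a common 2% trimmed mean, control probe sets (59 and 57) were left out, values under the 40th percentile were raised to it (the floor, 128.4 for U34A and 168.0 for RAE2.0), and probe sets had to exceed it on at least 1 of 3 arrays. Log2 signals were averaged over a gene's probe sets, and limma 3.58.1 (R 4.3.3) was run on the 3131 genes present on both types, with terms for population and array type as the replicate block, with empirical Bayes moderation (2 residual and 3.56 prior degrees of freedom) and Benjamini-Hochberg adjustment. Array type, the replicate number, pairs the populations because each type has its own probe sets. The number of arrays limits the precision. The fit was also run on simulated data with independent noise, which cannot show whether the array types serve as replicates here. Alternatives covered normalization, the floor, the filter, the probe set summary, the block and leaving out each array.

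The 35 genes, the other pathway genes and the markers were chosen with earlier results of these data known. Every gene with a probe set is named, and the 12 with the lowest p in any comparison are given with full statistics because none passed; other pathway genes are named in the report where they passed, and in the closing section as stated there.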

Additional observations from a re-analysis of the deposited data

How the results depend on the processing

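No listed gene was called with limma under any of the 14 alternatives, and for the 12 genes with full statistics all 167 values kept their direction with no adjusted p under 0.05 (lowest 0.0744); Mvk had no value where every array had to exceed the floor. These genes were chosen by their low p, and sizes moved by over 1.5 times for several. Without 1 array, the log2 fold was 0.71 for Acat2 (OEC Ep U34A), 0.71 for Ebp (TEG3 RAE2.0), -0.52 for Elovl5 (TEG3 U34A), 0.52 for Hsd17b7 (OEC Lp RAE2.0), 1.91 or 0.38 for Scd (TEG3 U34A or RAE2.0) and 0.47 or 1.94 for Srebf1 (OEC Ep U34A or RAE2.0). It was 0.63 for Cyp51 with the brightest probe set, and 1.69 for Mvk and 0.75 for Scd with a floor at the 20th percentile. The median log2 fold of TEG3 against OEC Ep, 0.34, was 0.36 with quantile normalization, 0.37 with no floor and log2(signal + 16), 0.41 with a floor at the 20th percentile, 0.19 for the 22 genes above the floor on all arrays and 0.14 with the brightest probe set per gene; without each array in turn it ran from 0.34 to 0.51 (0.51 without the TEG3 U34A array). That of OEC Lp against OEC Ep (0.42) ran from 0.10 without the OEC Lp U34A array to 0.85 without the OEC Lp RAE2.0 array. That of TEG3 against OEC Lp (0.06) was -0.05 with the brightest probe set, and ran from -0.30 without the OEC Lp RAE2.0 array to 0.24 without its U34A array. Without the replicate block of array type, the medians were the same and no listed gene had an unadjusted p under 0.05. The calls over all genes, main 192, 136 and 38 in the order in which the report takes the comparisons, were 1, 1 and 0 without the filter, 41, 0 and 0 with only the 4 arrays compared and 0, 0 and 0 without the block (193, 172 and 110 unadjusted). They were 0 to 41, 0 and 0 without each array. They were 74 in the first where every array had to exceed the floor, and 4 in the last with no floor or the lower floor. The causes were not tested. Genes near the floor (Mvk and Acaca on U34A) have bounds only. The means of Acsl3 and Acsl4 on U34A and of Lss and Scap on RAE2.0 each include a probe set with 1 population under the floor.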

Other observations

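Among pathway genes off the list measured on RAE2.0 only, 4 are named here, picked after their values were seen, with 1 array per population and no test. Elovl2, an elongase of long polyunsaturated fatty acids that acts after Fads2 and Elovl5, was at the floor in TEG3 and OEC Lp, against 10105 in OEC Ep. Dgat2, which makes triglycerides, had 1014 in TEG3, 978 in OEC Lp and 338 in OEC Ep, so TEG3 and OEC Lp were both higher. Lpin1, a phosphatidate phosphatase, had 218 in TEG3, 835 in OEC Lp and 297 in OEC Ep, and Mylip, the ubiquitin ligase that sterols induce, had 263 in TEG3, 2208 in OEC Lp and 803 in OEC Ep. Both were thus highest in OEC Lp. Lbr, a reductase whose reaction Tm7sf2 also performs, was measured on both types, with 349 in TEG3, 344 in OEC Lp and the floor of 128 in OEC Ep on U34A and 3104 in TEG3, 1467 in OEC Lp and 1031 in OEC Ep on RAE2.0 (fitted log2 fold of TEG3 against OEC Ep 1.52 ± 0.38, SE; limma adjusted p = 0.0988), and with OEC Ep at the floor its U34A ratio was at least 2.72-fold.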
